A study of Homo sapiens with 6 samples.

Results

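The genes described here encode the proteasome, the protease complex that degrades ubiquitin-tagged proteins, together with its activators, its inhibitor and the chaperones that assemble it. They were chosen by symbol, as every gene named PSMA, PSMB, PSMC, PSMD, PSME, PSMF or PSMG followed by a number. The rule took 46 of the 15024 genes in the table, and all 46 passed the filter on low values. PSMA8 and PSMB11, germ cell and thymus subunits, were not analysed here. Within the 46, PSMB8, PSMB9, PSMB10, PSME1 and PSME2, which are known to be inducible by interferon, were set against the other 41.

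RNA was measured in 6 libraries of MDA-MB-231, an established triple-negative breast cancer cell line of mesenchymal character. Every library came from cells with a control guide that targets no gene (sgNT) that had received 10 µM forskolin, an activator of adenylyl cyclase, for 14 days. By cell sorting, 3 libraries were made from CD44+ cells with high CD104 (CD104high, called hybrid in epithelial-mesenchymal state in the design) and 3 from CD44+ cells with absent or low CD104 (CD104low, called mesenchymal). All libraries thus share the guide, the drug, the CD44+ gate and 1 cell line, and no untreated library was analysed here. Recovered reads ranged from 52088604 to 56958065 per library.

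ITGB4, which encodes CD104 and so checks the sort, stood at 17659 ± 1766 normalised read counts in CD104high and 3079 ± 744 in CD104low (SD, n = 3 each). Among markers of other cell types, 1 of 8 leukocyte genes was in the table, CD14, with 534 to 573 in CD104high and 240 to 263 in CD104low. The other 7, PTPRC among them, were not analysed here. All 4 fibroblast genes were in the table, with summed counts of 2750 to 3590 against 1640 to 2140, of which COL1A2 was higher (2.82-fold, adjusted p = 0.00402 by limma). LUM, with a fold of 4.64 and overlapping groups, did not pass (adjusted p = 0.0591 by limma), nor did COL1A1, with a fold of 1.07 (adjusted p = 0.65), and DCN was at 1.97 to 4.94 in every library, under the filter. Of 3 endothelial genes only PECAM1 was in the table, at 1.99 to 8.23 against 4.12 to 9.85. The part of CD14, COL1A2 and LUM in the results was not tested. In bulk samples, fewer cells of a type and less RNA per cell cannot be told apart.

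The core of the proteasome, the 20S particle, is a barrel of stacked rings in which outer alpha rings gate the entry and inner beta rings hold the catalytic sites. PSMB5, PSMB6 and PSMB7 carry the chymotrypsin-like, caspase-like and trypsin-like activities. Under interferon, PSMB8, PSMB9 and PSMB10 can take their places in newly assembled particles, which are then called immunoproteasomes and are known for producing peptides for presentation on MHC class I. The 19S cap, made of an ATPase ring and non-ATPase subunits of a base and a lid, recognises, unfolds and feeds in ubiquitinated proteins. Other caps, PA28 alpha/beta (PSME1 and PSME2), PA28 gamma (PSME3) and PA200 (PSME4), open the core without ubiquitin recognition.

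The proteasome genes split in 2 directions. Of the 46, 4 were higher in CD104high and 25 were lower by limma with Benjamini-Hochberg adjustment over 14343 genes at 0.05, and 17 passed in neither direction. Over all genes tested, 12.1% were higher and 11.3% lower. The 4 higher genes were PSMB9, PSMB8, PSMB10 and PSME1, all among the 5 inducible genes, whose median log2 fold change was 0.76. Among the other 41 genes, 0 were higher and 25 lower by limma, and 0 were higher by edgeR, by DESeq2 or at an unadjusted p under 0.05 by limma. Of these 41, 40 had a log2 fold change below 0, and the median was −0.28. For comparison, 48.8% of all genes tested were below 0 and their median was 0.0089. Without overlap between the groups, 31 of these 41 genes were lower, where 21.3% of all genes tested were, and 4 of the 5 inducible genes were higher, where 19.9% of all genes tested were. As a share of all gene reads, the 41 genes together made up 0.593% ± 0.0162 in CD104high and 0.736% ± 0.0312 in CD104low, while the 5 inducible genes made up 0.0317% ± 0.0031 and 0.0211% ± 0.00309 (SD, n = 3 each).

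**Figure D1:**
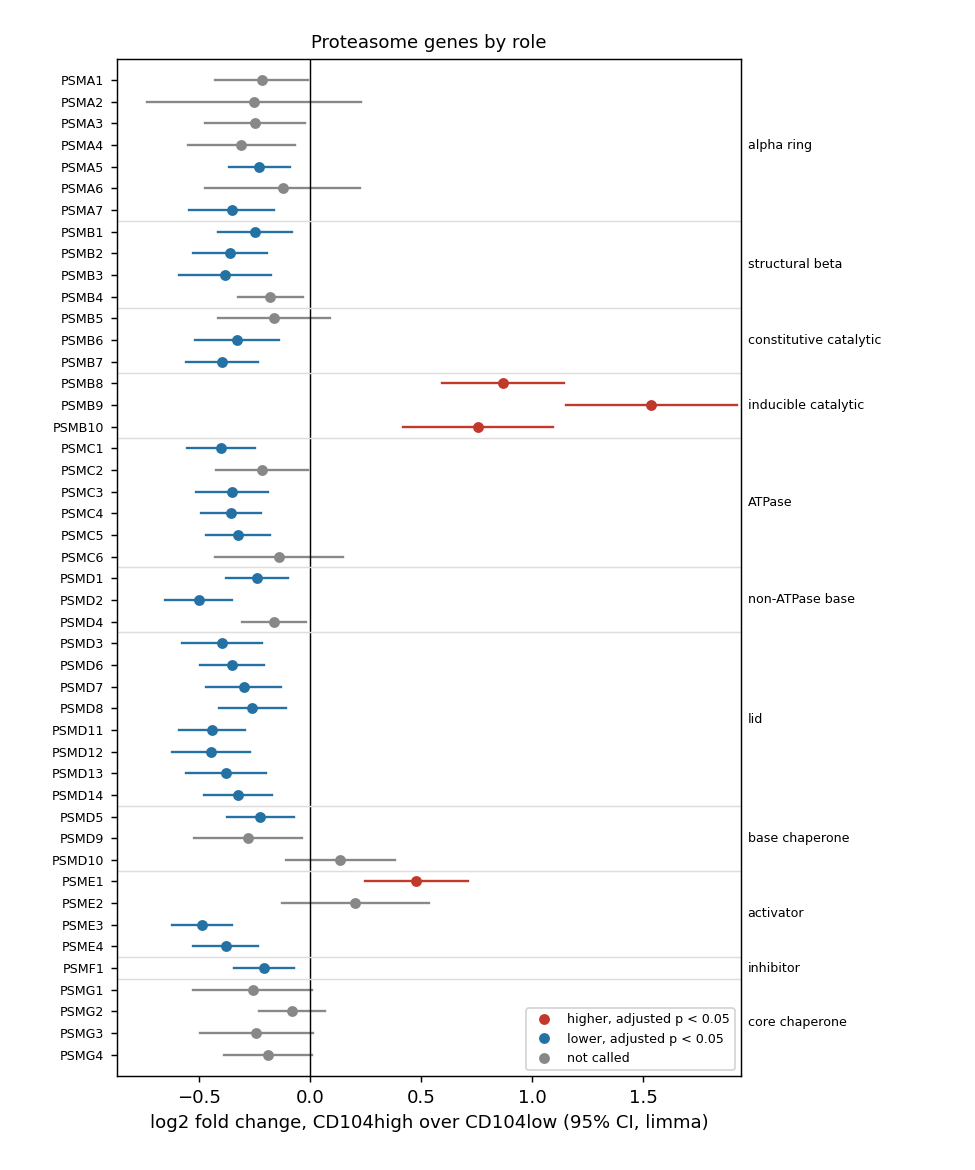
Log2 fold change of each of the 46 proteasome genes, CD104high over CD104low (x axis, with 95% confidence intervals from limma), ordered by role; red points are higher and blue points lower at an adjusted p under 0.05, grey points passed in neither direction. The 3 inducible catalytic subunits and PSME1 lie to the right of 0 in red, 40 genes lie to the left, 25 of them called lower, and PSME2 and PSMD10 lie to the right in grey.

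The inducible catalytic subunits came first in size. PSMB9, the inducible counterpart of PSMB6, was read at 2144, 1631 and 2017 normalised counts in CD104high replicates 1 to 3 and at 808, 498 and 716 in CD104low replicates 1 to 3. The groups lay far apart, and replicate 2 was the lowest on both sides. The log2 fold change was 1.54 (SE 0.17, adjusted p = 0.00046 by limma), a 2.90-fold higher level.

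PSMB8, the inducible counterpart of PSMB5, was read at 3405, 3325 and 3665 in CD104high and at 2357, 1636 and 1766 in CD104low. CD104low replicate 1 stood above the other two of its group, yet below every CD104high library. The log2 fold change was 0.87 (SE 0.12, adjusted p = 0.00138 by limma), or 1.83-fold. PSMB10, the inducible counterpart of PSMB7, was read at 982, 817 and 794 in CD104high and at 635, 470 and 442 in CD104low. Here replicate 1 was the highest in both groups, and the groups did not overlap. The log2 fold change was 0.76 (SE 0.15, adjusted p = 0.00663 by limma), or 1.69-fold. Leaving out any single library kept all 3 genes called, with log2 fold changes of 1.33 to 1.68 for PSMB9, 0.76 to 1.02 for PSMB8 and 0.66 to 0.92 for PSMB10.

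PSME1 and PSME2, which encode the alpha and beta chains of the PA28 cap, are neighbours on chromosome 14 and gave different results. PSME1 was read at 6537, 6117 and 7349 in CD104high and at 5220, 4089 and 5100 in CD104low, without overlap. Its log2 fold change was 0.48 (SE 0.10, adjusted p = 0.0101 by limma), a 1.39-fold higher level, and the adjusted p was 0.0563 when limma used no mean-variance trend. PSME2 was read at 3965, 3415 and 4879 in CD104high and at 4091, 2864 and 3692 in CD104low. CD104low replicate 1 lay above CD104high replicates 1 and 2, so the groups overlapped, and the log2 fold change of 0.20 (95% confidence interval −0.13 to 0.53) did not pass (adjusted p = 0.353 by limma). The difference between PSME1 and PSME2 was not tested.

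Sequences before the start sites of these 5 genes are shown because they are the genes on which the contrast turns, and because interferon-controlled factors are known to bind short motifs near the starts of such genes. Each run is the 250 bases before a RefSeq start site on GRCh38.p14, written 5′ to 3′ on the strand of the gene, with matches to any of 3 motifs in capitals. The motifs, searched on both strands, were the core of the interferon-stimulated response element (ISRE), which is GAAA, any 2 bases and GAAA again, the interferon gamma activated site (GAS), TTCNNNGAA, and a pattern like the antioxidant response element (ARE), TGACNNNGC. GAS reads the same on both strands.
PSMB8 (chr6:32844048-32844297, - strand): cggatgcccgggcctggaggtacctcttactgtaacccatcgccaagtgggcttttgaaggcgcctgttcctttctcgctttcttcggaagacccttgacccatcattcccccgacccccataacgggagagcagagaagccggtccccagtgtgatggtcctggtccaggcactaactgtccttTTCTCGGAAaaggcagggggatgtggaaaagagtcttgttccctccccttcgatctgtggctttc
PSMB9 (chr6:32853942-32854191, + strand): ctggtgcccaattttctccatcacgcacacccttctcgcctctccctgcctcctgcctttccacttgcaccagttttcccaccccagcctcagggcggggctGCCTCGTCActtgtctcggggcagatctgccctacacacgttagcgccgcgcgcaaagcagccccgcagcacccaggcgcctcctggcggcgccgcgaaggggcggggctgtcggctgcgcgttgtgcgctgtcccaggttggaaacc
PSMB10 (chr16:67936851-67937100, - strand): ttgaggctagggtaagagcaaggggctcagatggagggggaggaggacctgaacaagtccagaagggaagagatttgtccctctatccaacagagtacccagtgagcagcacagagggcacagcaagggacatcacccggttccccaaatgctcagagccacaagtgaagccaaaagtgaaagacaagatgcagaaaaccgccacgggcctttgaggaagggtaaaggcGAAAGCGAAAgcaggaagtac
PSME1 (chr14:24135944-24136193, + strand): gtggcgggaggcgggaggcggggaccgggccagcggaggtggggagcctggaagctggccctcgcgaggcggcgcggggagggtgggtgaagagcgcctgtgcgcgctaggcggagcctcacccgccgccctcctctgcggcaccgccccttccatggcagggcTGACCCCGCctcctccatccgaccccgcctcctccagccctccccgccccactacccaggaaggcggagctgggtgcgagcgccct
PSME2 (chr14:24146611-24146860, - strand): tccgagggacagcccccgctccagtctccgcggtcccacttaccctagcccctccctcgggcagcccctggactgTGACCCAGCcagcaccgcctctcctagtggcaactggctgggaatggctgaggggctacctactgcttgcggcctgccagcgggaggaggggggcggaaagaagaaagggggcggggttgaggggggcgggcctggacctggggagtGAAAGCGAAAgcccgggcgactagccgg

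PSME2 and PSMB10 both held the ISRE match GAAAGCGAAA, 28 to 19 and 21 to 12 bases before their starts. In PSMB8 the window shown held the GAS match TTCTCGGAA, 65 to 57 bases before the start, and the window of a second RefSeq start of PSMB8 held no match to any of the 3. PSMB9, PSME1 and PSME2 held 1 match each to the ARE-like pattern. RefSeq windows were found for 40 of the 46 genes, 49 windows in all; PSMA7, PSMB1, PSMB6, PSMB7, PSMD4 and PSMG3 had no entry. The ISRE core was in 5 of the 49 windows and in 3.02% of the 35116 windows of all genes, GAS in 6 of 49 and 6.57%, and the ARE-like pattern in 13 of 49 and 10.9%. Matches were not limited to genes that were higher in CD104high: PSMA4, PSMB4 and PSMG4 also held the ISRE core, and PSMB5, PSMC4, PSMD3 and PSME3 were among those with GAS. A match describes the letters in the window and is not a site of binding.

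The 3 constitutive catalytic subunits had log2 fold changes below 0, and 2 of the 3 were lower, where 11.3% of all genes tested were. PSMB7, with the trypsin-like site, was read at 9889, 9376 and 10245 in CD104high and at 14085, 12249 and 12571 in CD104low, without overlap, and fell by 0.40 on the log2 scale (SE 0.07, adjusted p = 0.0046 by limma). PSMB6, with the caspase-like site, was read at 7503, 6926 and 6947 in CD104high and at 10156, 8357 and 8424 in CD104low, also without overlap. Its log2 fold change was −0.33 (SE 0.09, adjusted p = 0.0211 by limma). Without CD104high replicate 2 or 3, PSMB6 missed the threshold at a log2 fold change of −0.31 (adjusted p of 0.057 to 0.077 by limma). PSMB5, with the chymotrypsin-like site and known as the main target of the drug bortezomib, was read at 6932, 6550 and 8602 in CD104high and at 9078, 7227 and 8345 in CD104low. CD104high replicate 3 lay among the CD104low libraries, and the log2 fold change of −0.16 (95% confidence interval −0.41 to 0.09) did not pass (adjusted p = 0.33 by limma).

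**Figure D2:**
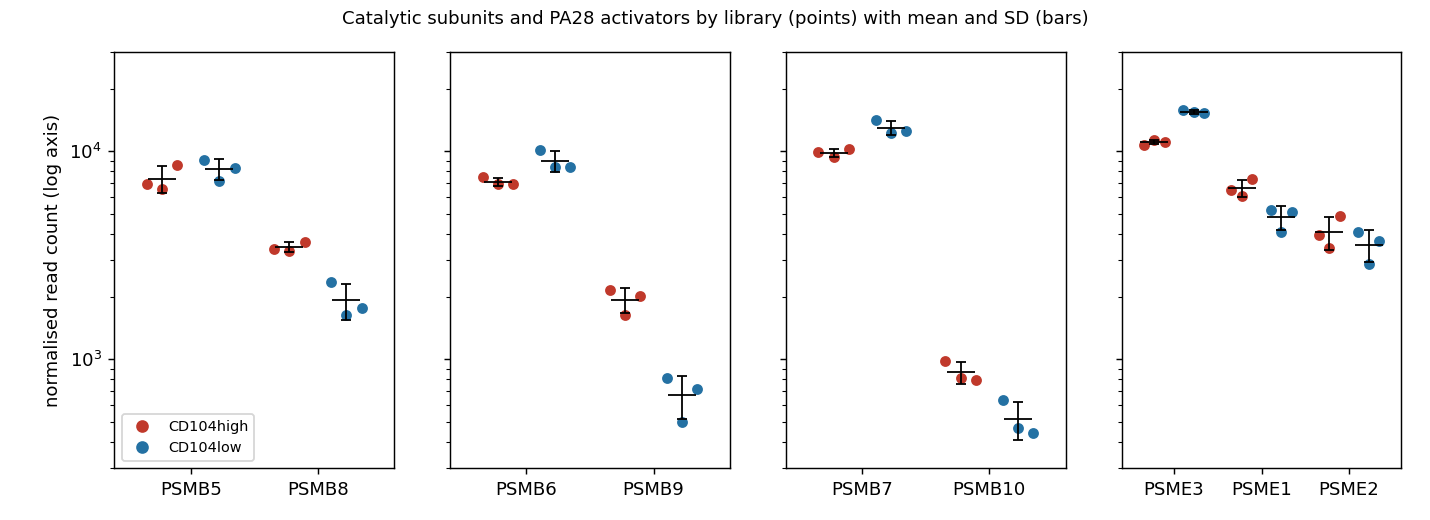
Normalised read counts on a log axis for each constitutive catalytic subunit beside its inducible counterpart, and for PSME3 beside PSME1 and PSME2; points are libraries, replicates 1 to 3 from left to right, and bars are the mean and SD of 3. For PSMB8, PSMB9, PSMB10 and PSME1 all CD104high points lie above all CD104low points, for PSMB6, PSMB7 and PSME3 they lie below, and for PSMB5 and PSME2 they overlap.

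Set against its partner within each library, every inducible subunit made up a larger part in CD104high. Counts were divided by the exon length of each gene for these levels. PSMB8 stood at 28.9%, 29.9% and 25.1% of PSMB5 in the 3 CD104high libraries and at 15.3%, 13.3% and 12.5% in the 3 CD104low libraries. PSMB9 stood at 13.5%, 11.1% and 13.7% of PSMB6 in CD104high and at 3.75%, 2.81% and 4.01% in CD104low. PSMB10 stood at 9.58%, 8.40% and 7.48% of PSMB7 in CD104high and at 4.34%, 3.70% and 3.39% in CD104low. The groups were separate for all 3 pairs, and in every library the constitutive partner had the higher level. The ratio was 2.04-fold higher for PSMB8 over PSMB5, 3.64-fold for PSMB9 over PSMB6 and 2.23-fold for PSMB10 over PSMB7. Together the inducible subunits gave 13.4% ± 0.471 of the length-scaled reads of the 6 catalytic subunits in CD104high and 5.88% ± 0.552 in CD104low (SD, n = 3 each).

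For the caps, PSME1 stood at 175% ± 18 of PSME3 per length in CD104high and at 89.7% ± 11.2 in CD104low, and PSME2 at 53.2% ± 10.0 and 32.9% ± 5.46 (SD, n = 3 each). The order of PSME1 and PSME3 thus differed between the groups, with PSME1 above PSME3 in all 3 CD104high libraries and below it in all 3 CD104low libraries. For all 5 ratios, the difference of mean log2 ratios gave p = 0.1 by an exact two-sided permutation test, also after Benjamini-Hochberg adjustment over the 5. This is the smallest p that such a test allows with 3 libraries against 3, so it cannot reach 0.05 here. The permutation did not keep libraries of the same replicate number together as pairs. A ratio also holds the partner's own difference, which passed for PSMB6, PSMB7 and PSME3 and did not pass for PSMB5.

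**Figure D3:**
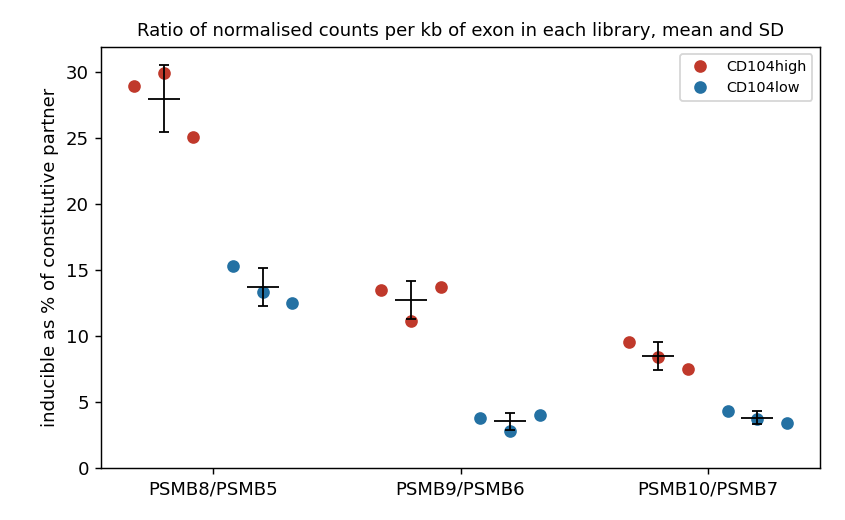
Each inducible catalytic subunit as a percentage of its constitutive partner, per length of exon, in each library (points, replicates 1 to 3 from left to right) with the mean and SD of 3. CD104high libraries lie above CD104low libraries in all 3 pairs, from 25.1% to 29.9% against 12.5% to 15.3% for PSMB8 over PSMB5.

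The structural genes of the core were lower in part. In the alpha ring, 2 of 7 genes were lower, PSMA7 and PSMA5, where 11.3% of all genes tested were, and the median was −0.25. PSMA7, the alpha ring gene with the largest difference, was read at 19918, 19812 and 21673 in CD104high and at 29487, 25117 and 24098 in CD104low, and its log2 fold change was −0.35 (SE 0.09, adjusted p = 0.0158 by limma). PSMA5 ranged from 10478 to 11245 in CD104high and from 12411 to 12967 in CD104low, and its log2 fold change was −0.23 (SE 0.06, adjusted p = 0.0238 by limma). Neither gene overlapped between the groups, nor did PSMA1, PSMA3 and PSMA4, whose adjusted p by limma was 0.12, 0.104 and 0.065. PSMA6 had the smallest difference, −0.12 (adjusted p = 0.608 by limma), which turned to 0.040 without CD104high replicate 2. PSMA7 missed the threshold without CD104high replicate 1 or 2 (adjusted p of 0.0631 to 0.068 by limma), and PSMA5 without CD104high replicate 1 or 2 or CD104low replicate 2 or 3 (0.0516 to 0.0868 by limma).

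Of the 4 structural beta genes, 3 were lower, where 11.3% of all genes tested were. PSMB3 had the largest difference, with 7362, 7326 and 7540 in CD104high and 11264, 8705 and 9201 in CD104low. The CD104high libraries were close together, and CD104low replicate 1 stood well above the other two. Log2 fold changes were −0.38 for PSMB3 (SE 0.09, adjusted p = 0.0153 by limma), −0.36 for PSMB2 (SE 0.08, adjusted p = 0.00809) and −0.25 for PSMB1 (SE 0.07, adjusted p = 0.0369). PSMB4 had the smallest, −0.18, and did not pass (adjusted p = 0.0774 by limma), though its groups did not overlap. PSMB3 missed the threshold without CD104high replicate 1 or 2 (adjusted p of 0.055 to 0.0594 by limma), and PSMB1 without any 1 of the CD104high libraries or without CD104low replicate 1 (0.0569 to 0.114 by limma).

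In the 19S cap 14 of the 17 genes that the rule took were lower, and in the constitutive core 7 of 14, where 11.3% of all genes tested were. PSMA1, PSMA2 and PSMA6, among the core genes that did not pass, had low levels per length, given below. The difference between cap and core was not tested. All 17 cap genes had a log2 fold change below 0, from −0.50 to −0.14. PSMD2, a base subunit that docks substrates and their carriers, had the largest difference of all 41 genes. It was read at 37778, 36383 and 39180 in CD104high and at 55060, 52303 and 52982 in CD104low, and both groups were tight and far apart. It fell by 0.50 on the log2 scale (SE 0.07, adjusted p = 0.00109 by limma). PSMD1, the other large scaffold of the base, differed by −0.24 on the log2 scale (SE 0.06, adjusted p = 0.0228 by limma) and missed the threshold without CD104high replicate 1 or 2 or CD104low replicate 2 or 3 (0.055 to 0.0846). The ubiquitin receptor PSMD4 had −0.16 and did not pass (adjusted p = 0.0967 by limma).

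Of the 6 ATPases that unfold substrates, 4 were lower, where 11.3% of all genes tested were. PSMC1 was read at 5020, 4891 and 5207 in CD104high and at 7112, 6415 and 6451 in CD104low, without overlap, and its log2 fold change was −0.40 (SE 0.07, adjusted p = 0.00321 by limma). In the annotation, 75.8% of the exon bases of PSMC1 are shared with NRDE2 on the opposite strand, so its reads cannot be told apart from those of NRDE2 where counting ignored strand. PSMC4, PSMC3 and PSMC5 had −0.36, −0.35 and −0.32, with adjusted p of 0.00334, 0.00746 and 0.00684 by limma. PSMC2 and PSMC6 overlapped between the groups and did not pass, with −0.22 and −0.14 and adjusted p of 0.117 and 0.467 by limma.

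All 8 lid genes that the rule took were lower, where 11.3% of all genes tested were, with log2 fold changes from −0.44 to −0.26. None of the 8 overlapped between the groups, where 21.3% of all genes tested were lower without overlap. The small cap subunit SEM1, which the rule did not take, had −0.21 with overlap and did not pass (adjusted p = 0.136 by limma). PSMD12, with the largest difference in the lid, was read at 6316, 7381 and 6941 in CD104high and at 9741, 9655 and 8664 in CD104low. Its log2 fold change was −0.44 (SE 0.08, adjusted p = 0.00383 by limma). PSMD11 was read at 7076, 7192 and 7099 in CD104high and at 10276, 9092 and 9685 in CD104low. The CD104high libraries hardly differed from each other, and the log2 fold change was −0.44 (SE 0.07, adjusted p = 0.0018 by limma). PSMD14, the enzyme that cuts ubiquitin chains from substrates before they enter, differed by −0.32 (95% confidence interval −0.48 to −0.17, adjusted p = 0.00821 by limma).

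The remaining lid genes PSMD3, PSMD13, PSMD6, PSMD7 and PSMD8 had log2 fold changes of −0.40, −0.38, −0.35, −0.30 and −0.26, with adjusted p of 0.00688, 0.00886, 0.00478, 0.0188 and 0.0213 by limma. PSMD8, with the smallest difference in the lid, averaged 13660 ± 826 in CD104high and 16336 ± 502 in CD104low (SD, n = 3 each). It missed the threshold without CD104high replicate 1 or 2 (adjusted p of 0.0825 to 0.0856 by limma). PSMD7 missed it without any 1 of the CD104high libraries or without CD104low replicate 2 (0.0502 to 0.0634 by limma).

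The other 2 caps and the inhibitor were lower as well. PSME3, which forms the nuclear PA28 gamma cap, was read at 10772, 11328 and 11063 in CD104high and at 15860, 15411 and 15208 in CD104low. Spread within each group was small beside the gap between them, and the gene fell by 0.49 on the log2 scale (SE 0.06, adjusted p = 0.000746 by limma), in the opposite direction to PSME1. PSME4, the PA200 cap known for its part in histone degradation, was read at 4614, 4257 and 4317 in CD104high and at 5534, 5851 and 5774 in CD104low, and differed by −0.38 on the log2 scale (SE 0.07, adjusted p = 0.00337 by limma). PSMF1, which encodes the inhibitor PI31, was read at 6610, 6592 and 6346 in CD104high and at 7661, 7480 and 7431 in CD104low, with −0.21 (SE 0.06, adjusted p = 0.0317 by limma). The groups of both genes were separate. PSMF1 missed the threshold without any 1 library other than CD104low replicate 1 (adjusted p of 0.0577 to 0.112 by limma).

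Few assembly chaperones passed, 1 of 3 for the base and 0 of 4 for the core as lower, where 11.3% of all genes tested were. Of the 3 base chaperones, only PSMD5 was lower, by −0.22 on the log2 scale (SE 0.07, adjusted p = 0.0385 by limma), and it missed the threshold without any 1 library other than CD104low replicate 1 (0.0527 to 0.126). PSMD9 had −0.28, the largest of the 3, and did not pass (adjusted p = 0.0902 by limma). PSMD10, also known as gankyrin, was the 1 gene among the 41 with a value above 0, at 0.14 (95% confidence interval −0.11 to 0.38, adjusted p = 0.403 by limma). It was read at 2404, 2426 and 2823 in CD104high and at 2596, 1978 and 2413 in CD104low, with overlap. In 1 alternative, a correction for gene length and GC content with the replicate number as a block, PSMD10 was called higher (adjusted p = 0.0152 by limma). Of the 4 core chaperones PSMG1 to PSMG4, which help to build the alpha ring, 0 passed by limma, edgeR or DESeq2 without a block, 0 had an unadjusted p under 0.05 by limma, and the groups overlapped for all 4. Within pairs of the same replicate number, CD104high was lower in 3 of 3 for each, and with the number as a block PSMG1 and PSMG3 were lower (adjusted p = 0.0417 and 0.0373 by limma). Their log2 fold changes ran from −0.26 for PSMG1 (adjusted p = 0.149 by limma) to −0.08 for PSMG2 (adjusted p = 0.406). Without CD104high replicate 3, PSMG1 was lower at −0.40 (adjusted p = 0.0184 by limma).

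Libraries of the same replicate number deviated together, and a fit with the number as a block gave 4 higher and 29 lower genes, where 17.4% and 15.4% of all genes tested were called. Lower in that fit but not in the unblocked one were PSMA4 (adjusted p = 0.0463), PSMC2 (0.0394), PSMG1 (0.0417) and PSMG3 (0.0373), all by limma. Among the 41 genes, CD104low replicate 1 held the highest value for 28, and CD104high replicates 1 and 2 held the lowest for 16 and 20. Without CD104low replicate 1, 24 of the 41 were lower, where 8.95% of all genes tested were, with a median of −0.25. The count was 16 without CD104high replicate 1 and 15 without CD104high replicate 2, where 5.61% and 6.33% of all genes tested were lower. In the fits without each library in turn, 15 of the 25 genes were called each time, and 10 missed the threshold at least once, with log2 fold changes that stayed below 0. The 15 were PSMB2, PSMB7, PSMC1, PSMC3, PSMC4, PSMC5, PSMD2, PSMD3, PSMD6, PSMD11, PSMD12, PSMD13, PSMD14, PSME3 and PSME4. Some genes outside the 25 were lower only in such a fit. These were PSMG1 and PSMC2 without CD104high replicate 3 (adjusted p = 0.0184 and 0.0438 by limma) and PSMA4 without CD104low replicate 3 (0.0358).

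**Figure D4:**
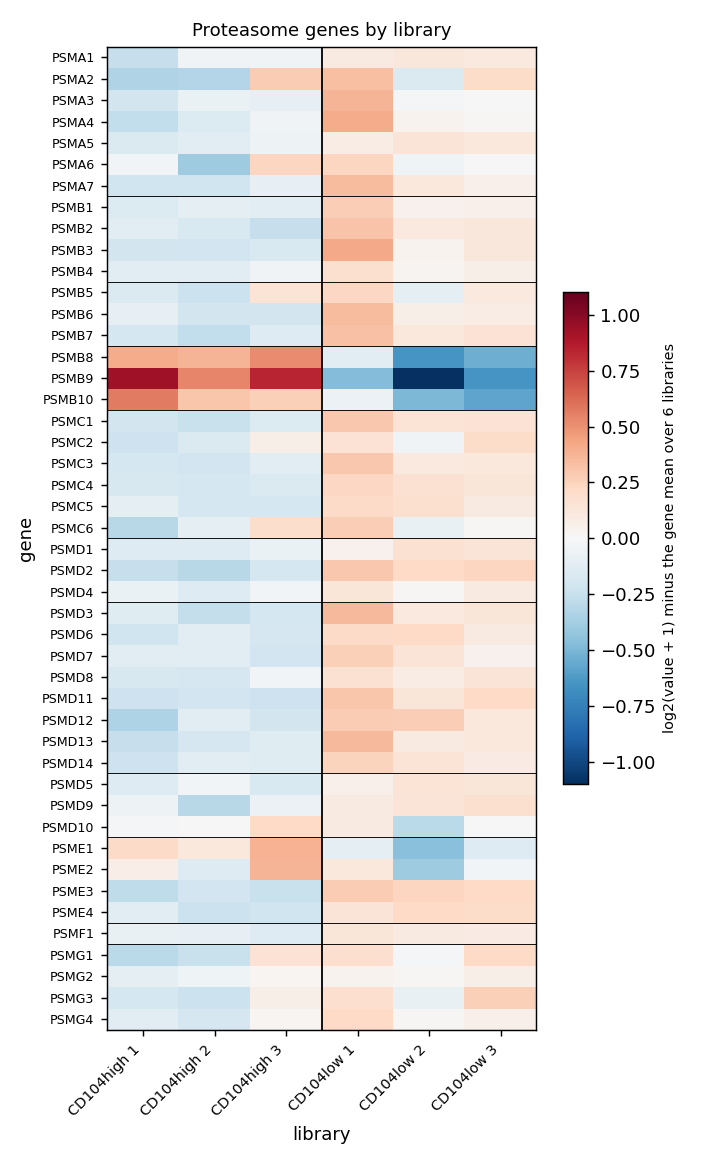
Each gene's log2(value + 1) in each library minus its mean over the 6 libraries (colour scale), genes ordered by role, with a black line between CD104high on the left and CD104low on the right. PSMB8, PSMB9, PSMB10 and PSME1 are red on the left, and most other genes are blue there. Among the 41 other genes, the reddest library is most often CD104low replicate 1, which holds the highest value for 28.

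Levels per length also differed widely among subunits that stand in equal number in the core. PSMA2, PSMA6 and PSMA1 had 30.6, 109 and 288 normalised counts per kb of annotated exon in CD104high, against 11696 for PSMA7 and 6111 for PSMB4. PSMD9 had 68.5. For PSMA1, PSMA2, PSMA6 and PSMD9, exon bases shared with overlapping annotated genes made up 24.7%, 34.6%, 14.1% and 22.6%, and how reads in shared exons were counted is not given in the sources used here. The same holds for PSMB8, with 20.6% of its exon bases shared with PSMB8-AS1 and PSMB9 on the other strand, for PSMB9, with 5.66%, and for PSMB10, with 34.8% shared with AC040162.1 on its own strand. Their part in the results was not tested.

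Genes that act with the proteasome under other names were followed in the same fit, 45 genes in all, of which 8 were higher and 7 lower, where 12.1% and 11.3% of all genes tested were. Proteasome subunits and factors gave 0 higher and 3 lower of 11. ADRM1, a ubiquitin receptor of the 19S cap, was read at 5995, 5679 and 6687 in CD104high and at 9310, 8176 and 9036 in CD104low, without overlap. It fell by 0.53 on the log2 scale (SE 0.08, adjusted p = 0.00194 by limma), close in size to PSMD2. TXNL1, a thioredoxin bound to the cap, had −0.28 (adjusted p = 0.0253 by limma), and AKIRIN2, which brings proteasomes into the nucleus, had −0.34 (adjusted p = 0.0316 by limma). Both missed the threshold without any 1 of 4 libraries. CD104high replicates 2 and 3 and CD104low replicate 1 were among the 4 for both, with CD104high replicate 1 for TXNL1 (0.0515 to 0.0934 over the 4) and CD104low replicate 2 for AKIRIN2 (0.0604 to 0.101). The core maturation factor POMP had −0.30 and the small cap subunit SEM1 −0.21, and neither passed (adjusted p = 0.0604 and 0.136 by limma). POMP was lower without CD104low replicate 3 and SEM1 without CD104low replicate 2 (adjusted p = 0.0399 for each by limma).

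Regulators of proteasome transcription gave 0 of 7 in either direction by limma or edgeR, while DESeq2 called 1 higher and 1 lower, and an unadjusted p under 0.05 by limma was found for 1 higher and 2 lower. NFE2L1, the factor known to raise proteasome genes when proteasome activity is low, had a log2 fold change of 0.07 (95% confidence interval −0.09 to 0.23, adjusted p = 0.522 by limma). NFE2L2 had 0.19 and DDI2, the protease that activates NFE2L1, had −0.29, with adjusted p of 0.0579 and 0.0697 by limma. With the replicate number as a block these were 0.0352 and 0.039. Genes for ubiquitin, its activating enzymes and shuttle factors gave 0 higher and 3 lower of 10, where 12.1% and 11.3% of all genes tested were called. The 3 were UBQLN4 (−0.27, adjusted p = 0.0109 by limma), UBQLN1 (−0.26, adjusted p = 0.0122) and the segregase VCP (−0.21, adjusted p = 0.0466). In this list and that of the proteasome factors, edgeR, DESeq2 and an unadjusted p under 0.05 by limma also gave 0 higher. UBQLN1 missed the threshold without CD104low replicate 2 (0.0514) and VCP without any 1 of the 6 libraries (0.0593 to 0.151). Over all 45 genes, the lower count was 11 with the block, where 15.4% of all genes tested were lower, and 3 to 8 without each library in turn. It was 3 without CD104high replicate 2, CD104high replicate 3 or CD104low replicate 1, where 6.33%, 8.41% and 8.95% of all genes tested were lower. It was 4 without CD104high replicate 1 or CD104low replicate 2, where 5.61% and 7.22% were, and 8 without CD104low replicate 3, where 10.8% were.

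Among antigen processing genes and their regulators, 8 of 17 were higher and 1 was lower, where 12.1% and 11.3% of all genes tested were. TAP1 (chr6:32845209-32853978), a chain of the peptide transporter, lies inside the annotated span of PSMB9 (chr6:32844136-32859585) on the other strand, in GENCODE on GRCh38. The RefSeq start of PSMB9 used above lies past TAP1 instead, and the window before it (chr6:32853942-32854191) covers the TAP1 start. TAP1 was read at 5077, 4609 and 5015 in CD104high and at 3219, 2713 and 2904 in CD104low. Its log2 fold change was 0.74 (SE 0.08, adjusted p = 0.000432 by limma). B2M, the light chain of MHC class I, was read at 38235, 43290 and 40858 in CD104high and at 30082, 22763 and 21500 in CD104low, with 0.73 (SE 0.12, adjusted p = 0.00237 by limma). Neither gene overlapped between the groups. IRF1, a transcription factor known to drive PSMB9 and TAP1 under interferon, had 0.68 (adjusted p = 0.00442 by limma), and NLRC5, the transactivator of MHC class I genes, had 0.61 (adjusted p = 0.00136).

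IFNGR2, a chain of the interferon gamma receptor, TAPBP, which holds the transporter to MHC class I, and the peptide trimming enzymes ERAP2 and ERAP1 were also higher, with log2 fold changes of 0.69, 0.61, 0.50 and 0.30 (adjusted p = 0.00284, 0.00176, 0.00832 and 0.0248 by limma). ERAP1 missed the threshold without CD104high replicate 1 or 3 or CD104low replicate 2 (0.0714 to 0.0905). IFNGR1, the other chain of the interferon gamma receptor, had −0.09 with overlap and did not pass (adjusted p = 0.664 by limma). JAK1 and JAK2, also in this list, both had −0.0089 and did not pass (adjusted p = 0.946 and 0.971 by limma). The chaperone CANX was the 1 lower gene (−0.21, adjusted p = 0.0415 by limma) and missed the threshold without any 1 library other than CD104low replicate 3 (0.0669 to 0.138). TAP2, the other chain of the transporter, had −0.31 without overlap and did not pass (adjusted p = 0.118 by limma; 0.033 without the mean-variance trend).

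**Figure D5:**
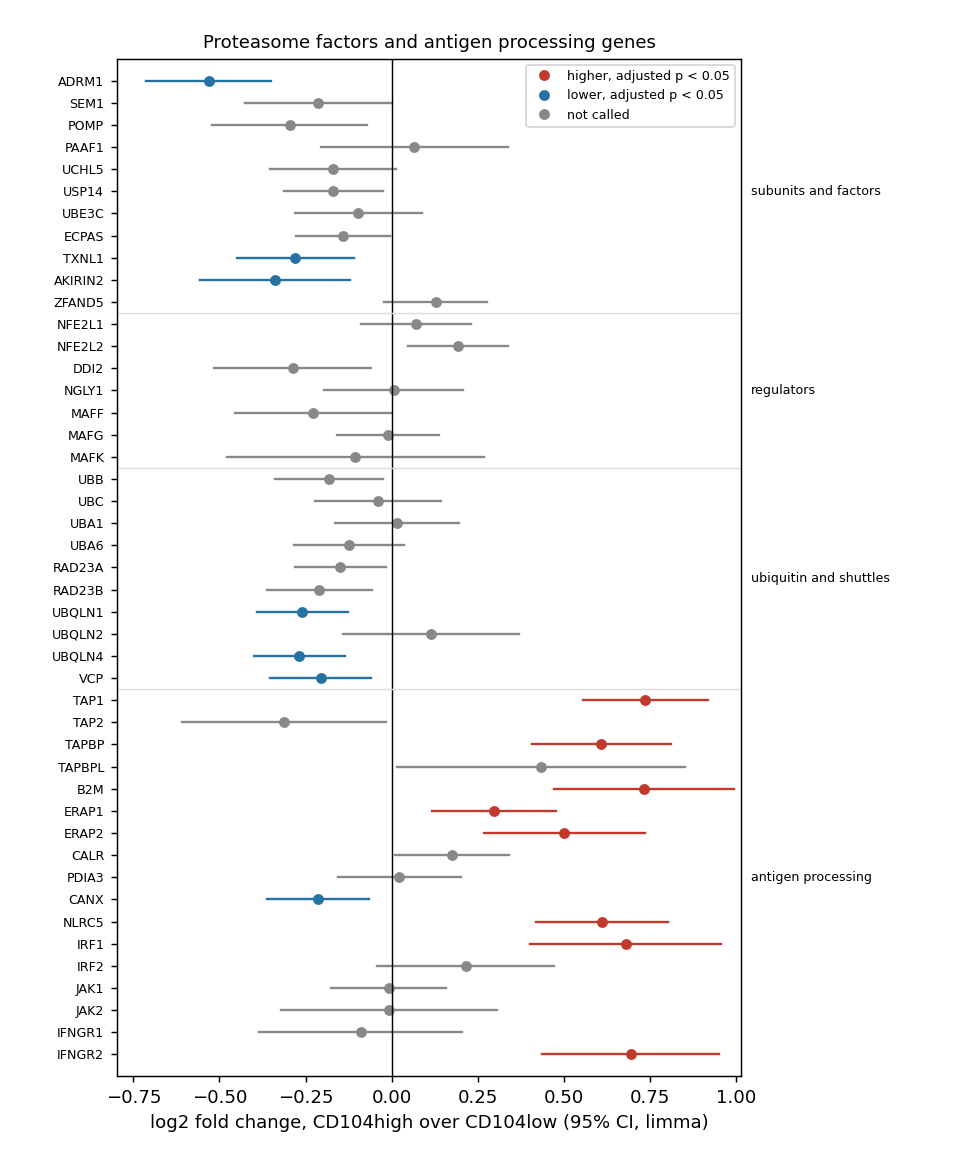
Log2 fold change, CD104high over CD104low (x axis, with 95% confidence intervals from limma), of 45 genes for other proteasome factors, regulators of proteasome transcription, ubiquitin and shuttles, and antigen processing; colours mark genes higher (red) or lower (blue) at an adjusted p under 0.05. The 8 higher genes all belong to antigen processing and its control, and 6 of the 7 lower genes to the other lists.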

How the data were processed

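RNA libraries of 6 sorted MDA-MB-231 samples were compared, 3 CD104high and 3 CD104low, grouped by their titles. MLL3-mutant cells named in the design were not analysed here. The submitters' processing notes list DESeq2 1.30.1, featureCounts 1.5.0, STAR 2.4.0 and FastQC, and the build GRCh38.p13 (hg38). How strand and shared reads were handled is not given in the sources used here. For each library the authors deposited a normalised signal per gene, which the values show to be read counts over a size factor. Beside it the authors deposited log2 fold changes, their standard errors, p-values and a test score. In the authors' deposited table PSMD9 had a log2 fold change of −0.28 and an adjusted p-value of 0.0282. Of its adjusted values, 1193 are empty. No other deposited comparison is used.

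A value of 1 read is 0.970 to 1.03 in the 6 libraries, and at least 99.96% of values are whole multiples of it within 0.1, so reads were recovered and tested with edgeR 4.0.16 and DESeq2 1.42.0 as alternatives. For CD104high replicate 2 the size of 1 read is close to 1, which makes its recovery less certain. As main test, limma 3.58.1 in R 4.3.3 was fitted to log2(value + 1) with its mean-variance trend. The added 1 understates the change of low genes. The fit took the 14343 genes with at least 10 in at least 3 of 6 libraries, and 681 were removed. Adjustment was by Benjamini-Hochberg over these genes, with a threshold of 0.05. The lowest value of any of the 46 genes in a library was 138 normalised counts, for PSMA2. The script was tested on simulated data.

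The members, the gene lists and the motifs were chosen with earlier results of these data known. Named one by one were the 5 inducible genes, the 3 constitutive catalytic subunits, every called member and the members with the largest and smallest fold change of each role; other genes named were chosen after their values were seen. One listed gene outside the 46 is not reported here. Exon lengths and overlaps came from GENCODE v29 on GRCh38, in which all 46 members matched by identifier, 6 with the same version. Promoters came from RefSeq on GRCh38.p14. Same-numbered libraries correlated in their deviations from the group means with r = 0.17, 0.32 and 0.48, each the highest for its library. For CD104low replicate 1 the next highest was 0.13, with CD104high replicate 2, so the pair of replicates 1 stood out little. The numbers were taken to pair the samples in the block fits, while the main fit did not use them. The replicates are called biological, but whether their cultures were separate is not given, so the p-values measure only how far these samples differ.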

Additional observations from a re-analysis of the deposited data

How the results depend on the processing

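Each result was recomputed with other pseudocounts (0.1 and 5), without the filter, with other scaling (TMM), without the trend, with the replicate block, with edgeR and DESeq2 on recovered reads, at a threshold of 0.01 and without each library in turn. A correction for gene length and GC content, alone and with the replicate block, was chosen after seeing the data. The count of lower members, all among the 41 other genes, was 25, and 15 without the trend (6.53% of all genes tested were lower), 15 at the threshold of 0.01 (4.25%) and 15 to 24 without each library in turn; the cause was not tested. It was 29 with the replicate block (15.4%), 25 with edgeR (11.6%), 26 with DESeq2 (13.2%), 22 under the length and GC correction (13.7%) and 27 under both (18.2%), with the share of all genes tested that were lower in brackets. The count of higher members ran from 3 to 6, and that of higher inducible genes from 3 to 5. PSME1 missed the threshold without the trend, and PSME2 passed under the replicate block once length and GC were corrected for (adjusted p = 0.0479 by limma). PSMD10, 1 of the 41 other genes, also passed the threshold in that fit, as higher, with a log2 fold change of 0.24 (adjusted p = 0.0152 by limma). PSMA5, PSMB1 and PSMD5 missed it under the length and GC correction (adjusted p = 0.0767, 0.1 and 0.0541 by limma). The log2 fold change of PSMA6 ran from −0.27 to 0.040 without each library in turn, above 0 without CD104high replicate 2. Of the genes outside the 46, the count of higher ones was 8 (12.1% of all genes tested), and 12 (19.2%) under the length and GC correction with the replicate block. The count of lower ones was 7 (11.3%), and 11 with the replicate block (15.4%) and 13 with that and the length and GC correction (18.2%). It was 4 without the trend (6.53%), 1 at the threshold of 0.01 (4.25%) and 3 to 8 without each library in turn (5.61% to 10.8%). The log2 ratios of PSMB8 to PSMB5, PSMB9 to PSMB6 and PSMB10 to PSMB7 kept their direction in the alternatives run for them, at 0.97 to 1.11, 1.71 to 1.97 and 1.06 to 1.25. With 3 libraries a group, the 95% intervals of the 17 members that passed in neither direction reached from −0.74 for PSMA2 to 0.53 for PSME2. For these 17 genes, a missed threshold does not show that the levels were equal.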
